A study of Homo sapiens with 12 samples.

Results

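The genes described here are LIN28B and other genes of the LIN28 and let-7 axis. Some of them, such as LIN28B and IGF2BP3, are counted as oncofetal, that is, active in the embryo, low in most adult tissue and found again in tumours. The list holds 8 genes: LIN28A, LIN28B, IGF2BP1, IGF2BP2, IGF2BP3, HMGA1, HMGA2 and DICER1. A gene was represented by a probe set whose platform annotation gives 1 symbol, and where several probe sets qualified, it was chosen by the highest mean over the 12 arrays. By this rule 7 of the 8 genes had a value, out of 16939 genes tested. HMGA2 is listed only on a probe set that also carries the symbol ELAC2, so its level is not analysed here. Per RefSeq the measured genes lie on chromosomes 1 (LIN28A), 3 (IGF2BP2), 6 (LIN28B and HMGA1), 7 (IGF2BP3), 14 (DICER1) and 17 (IGF2BP1). The rule used the mean level over all arrays and no difference between groups. The list was drawn up with earlier results of these arrays known, so the tests below describe these arrays and are not independent support for the choice.

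Expression was profiled in 12 samples, 1 Affymetrix whole-transcript array each, in 4 groups of 3. The groups were H3R, the line HTB56 after 3 rounds of selection in mice; H0R, unselected HTB56; A3R, the line A549 after 3 rounds of selection; and A0R, unselected A549. HTB56 is the catalogue name of Calu-6, a human line from an anaplastic lung carcinoma, and A549 is a human lung adenocarcinoma line. The selection was for forming tumour nodules in the mouse lung after injection into a vein, and all 4 groups are labelled untreated with regard to 5-azacytidine. The labels do not say whether the 3 arrays of a group came from separate cultures, or whether each selected line is 1 passage of cells through 1 series of mice, so the p-values measure the spread between these arrays. All levels are log2 RMA signals, on which a difference of 1 is a doubling, and levels of different genes are not set against each other because their probes differ.

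LIN28A and LIN28B are RNA-binding proteins that hold back the let-7 microRNAs. They bind the terminal loop of the let-7 precursor, block its cutting by Drosha and Dicer, and can recruit the uridyltransferases TUT4 and TUT7, after which the exonuclease DIS3L2 degrades the tailed precursor. Mature let-7 in turn represses mRNAs with sites that pair to its seed, and LIN28B, the IGF2BP genes, HMGA1, HMGA2 and DICER1 are all reported targets. In lung tumours let-7 is known as a microRNA that restrains growth genes, and LIN28B as a gene that is switched on again in a share of cancers.

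The let-7 sequences are shown because they are what the LIN28 proteins recognise and what the targets pair with. RefSeq (GRCh38.p14) gave 9 mature 5p forms, and all 9 share the same seed, bases 2 to 8, which is printed in capitals.
let-7a-5p: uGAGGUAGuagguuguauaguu
let-7f-5p: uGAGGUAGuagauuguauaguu
let-7i-5p: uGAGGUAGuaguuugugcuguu
miR-98-5p: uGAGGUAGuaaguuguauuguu
Of the 12 hairpins in RefSeq, 9 hold the letters GGAG, the core of the LIN28 zinc-knuckle motif, between the 2 mature arms on the RNA strand, and 3 do not (MIRLET7A3, MIRLET7B and MIR98). For MIRLET7F2 no 3p form was listed, so the search ran to the end of the hairpin. In the hairpins below, the first capitals mark the seed and the second, where present, mark GGAG.
MIRLET7I: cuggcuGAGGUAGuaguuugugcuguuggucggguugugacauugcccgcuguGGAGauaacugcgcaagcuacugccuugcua
MIRLET7A2: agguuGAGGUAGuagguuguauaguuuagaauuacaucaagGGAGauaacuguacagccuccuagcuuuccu
MIRLET7B: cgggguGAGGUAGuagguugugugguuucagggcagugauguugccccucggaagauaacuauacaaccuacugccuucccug
A match is a description of letters and not a measured binding site. Mature let-7 was not measured on these arrays.

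The arrays were similar in overall signal, with medians from 5.55 to 5.67 on the log2 scale, and the 20th percentile lay at 3.48 on average. Correlations over probe sets were 0.988 to 0.995 within groups and 0.949 to 0.961 between lines. A0R replicate 2 stood apart on 12 genes that are bright in HTB56 and dim in A549, with a median deviation of 0.85 on the log2 scale against -0.13 to 0.03 on the other A549 arrays. H0R replicate 2 deviated by 0.22 on 28 genes bright in A549 and dim in HTB56. Calls for selection in A549 are therefore also given without A0R replicate 2. The replicate numbers paired the arrays across groups, as judged from the values. A fit blocked on that number is quoted where it changed a call of the 7 genes or a list count that is given here.

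LIN28B was higher in selected than in unselected HTB56 and lower in selected than in unselected A549. Its level was 8.16, 8.16 and 8.22 in H3R, against 6.87, 6.51 and 6.70 in H0R. It was 4.93, 4.92 and 4.66 in A3R, against 5.74, 5.72 and 5.55 in A0R. The 4 groups did not overlap, and their order from high to low was H3R, H0R, A0R and A3R. In HTB56 the difference was 1.48 (SE 0.11, adjusted p = 4.77e-07), a 2.80-fold higher signal. In A549 it was -0.83 (SE 0.11, adjusted p = 0.00109), a 1.78-fold lower signal. With A0R replicate 2 left out, LIN28B differed in A549 by -0.81 (adjusted p = 0.00764). All A3R levels of LIN28B lay below the array median, where RMA signals are close to background and differences are compressed, so a fold against A3R is a ratio of signals and may understate the difference in RNA. The 2 differences differed from each other by 2.32 (SE 0.16, adjusted p = 6.62e-07), HTB56 minus A549. In bulk RNA such as this, fewer cells of a type and less RNA per cell cannot be told apart.

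Few genes were called in both lines, 96 (0.567% of those tested), where 1.75% of all genes were called in A549. Of all genes tested, 49 (0.289%) were called in opposite directions in the 2 lines and 47 (0.277%) in the same direction. Among genes called in both lines, opposite calls were thus about as frequent as calls in the same direction. Higher in H3R and lower in A3R, as for LIN28B, were 12 genes (0.0708%), and LIN28B was number 2 of these by the size of the difference between the lines. Over all genes it was number 17 by that difference and number 61 by the rise in HTB56 alone. The ranks by the difference between the lines rest on the dim A3R level too. In A3R the signal of LIN28B lay at its lowest at the 36.9th percentile of an array, and in H3R at its highest at the 79.2nd.

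**Figure D1:**
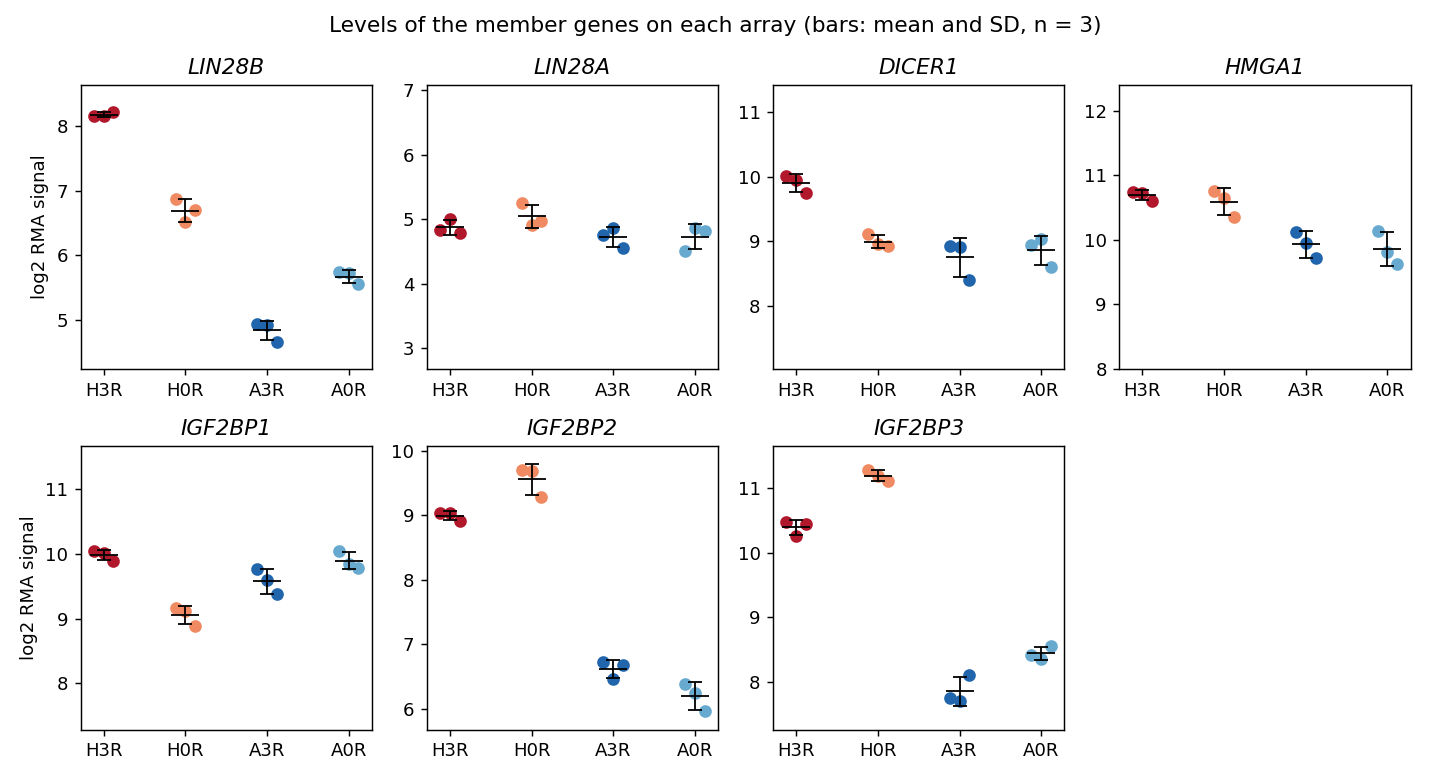
Levels of the 7 measured genes on each of the 12 arrays (y axes, log2 RMA signal, each panel spanning the same number of log2 units; x axis, group). Points are arrays, and bars are the group mean and SD (n = 3). For LIN28B the 4 groups are apart, from 8.18 in H3R to 4.84 in A3R, while LIN28A lies between 4.51 and 5.25 on all arrays.

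LIN28A, the paralogue of LIN28B that is best known from embryonic stem cells, was dim on every array and did not pass the test in any comparison. It was at 4.84, 5.00 and 4.78 in H3R and at 5.25, 4.91 and 4.97 in H0R. It was at 4.75, 4.87 and 4.55 in A3R and at 4.51, 4.86 and 4.82 in A0R. These signals lie between the 35.4th and the 46.1st percentile of their arrays, below the median of each. The selection difference was -0.17 in HTB56 (95% interval -0.45 to 0.10, adjusted p = 0.451) and -0.01 in A549 (-0.29 to 0.27, adjusted p = 0.996). Signals this close to background have compressed differences, so a selection difference of LIN28A was not detected here and is not shown to be absent. Between the unselected lines LIN28A passed under some alternative settings, as given below. A second probe set of LIN28A was dimmer still, at 4.19, 4.28, 3.79 and 4.23 in the means of H3R, H0R, A3R and A0R.

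DICER1, the RNase that cuts let-7 and other microRNA precursors into mature form, was higher in selected HTB56. Its level was 10.01, 9.95 and 9.75 in H3R, against 9.11, 8.95 and 8.92 in H0R. It was 8.93, 8.91 and 8.40 in A3R, against 8.94, 9.03 and 8.60 in A0R. All H3R arrays lay above all others, and the A3R and A0R arrays overlapped. The difference in HTB56 was 0.91 (SE 0.15, adjusted p = 0.000618). The difference in A549 was -0.11 (95% interval -0.43 to 0.22, adjusted p = 0.928). The selection differences of the 2 lines differed by 1.02 (SE 0.22, adjusted p = 0.00616).

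The 3 IGF2BP genes code for mRNA-binding proteins that stabilise or localise transcripts such as ACTB, CD44 and MYC, and they did not move together. IGF2BP1 was higher in selected HTB56, at 10.05, 10.01 and 9.89 in H3R against 9.16, 9.11 and 8.89 in H0R (difference 0.93, SE 0.12, adjusted p = 6.68e-05). In A549 it was at 9.76, 9.59 and 9.38 in A3R, against 10.05, 9.85 and 9.79 in A0R. The A3R and A0R arrays did not overlap, yet the difference of -0.32 did not pass the test (95% interval -0.58 to -0.07, adjusted p = 0.31). Blocked on the replicate number it passed, at adjusted p = 0.0376. The H3R arrays overlapped those of A0R, while the H0R arrays lay below all others.

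IGF2BP2, the IGF2BP paralogue with the widest expression in adult tissue, went the other way in HTB56. It was at 9.04, 9.03 and 8.91 in H3R, against 9.70, 9.69 and 9.28 in H0R (difference -0.56, SE 0.14, adjusted p = 0.00916). In A549 it was at 6.72, 6.46 and 6.68 in A3R, against 6.39, 6.24 and 5.96 in A0R. Those arrays did not overlap either, and the difference of 0.42 did not pass the test (95% interval 0.12 to 0.71, adjusted p = 0.222, and 0.0715 with the block).

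IGF2BP3, an oncofetal marker used in the pathology of several carcinomas, was lower after selection in both lines. It was at 10.48, 10.26 and 10.45 in H3R, against 11.29, 11.19 and 11.11 in H0R (difference -0.80, SE 0.12, adjusted p = 0.000258). It was at 7.75, 7.70 and 8.11 in A3R, against 8.41, 8.35 and 8.56 in A0R (difference -0.58, SE 0.12, adjusted p = 0.0228). The call in A549 was lost without A0R replicate 1 (adjusted p = 0.0689), A0R replicate 3 (0.0776), A3R replicate 1 (0.0928) or A3R replicate 2 (0.114). It was also lost in a fit on the A549 arrays alone (0.0938), and it held without A0R replicate 2 (0.0484). The selection differences of IGF2BP3 in the 2 lines differed by -0.22, HTB56 minus A549 (95% interval -0.59 to 0.14, adjusted p = 0.503), so a difference between the lines was not shown. For IGF2BP1 it was 1.25 (SE 0.17, adjusted p = 0.000206) and for IGF2BP2 -0.98 (SE 0.19, adjusted p = 0.00411).

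HMGA1, a chromatin protein that bends AT-rich DNA and is high in most dividing tumour cells, did not pass the test for selection. It was at 10.74, 10.73 and 10.60 in H3R and at 10.76, 10.65 and 10.35 in H0R. It was at 10.12, 9.95 and 9.71 in A3R and at 10.13, 9.81 and 9.62 in A0R. The arrays of selected and unselected cells overlapped in both lines. The differences were 0.10 in HTB56 (95% interval -0.21 to 0.42) and 0.07 in A549 (-0.24 to 0.39), with adjusted p of 0.737 and 0.955. The 3 probe sets of HMGA1 gave 0.20, 0.09 and 0.10 in HTB56 and -0.17, 0.03 and 0.07 in A549.

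**Figure D2:**
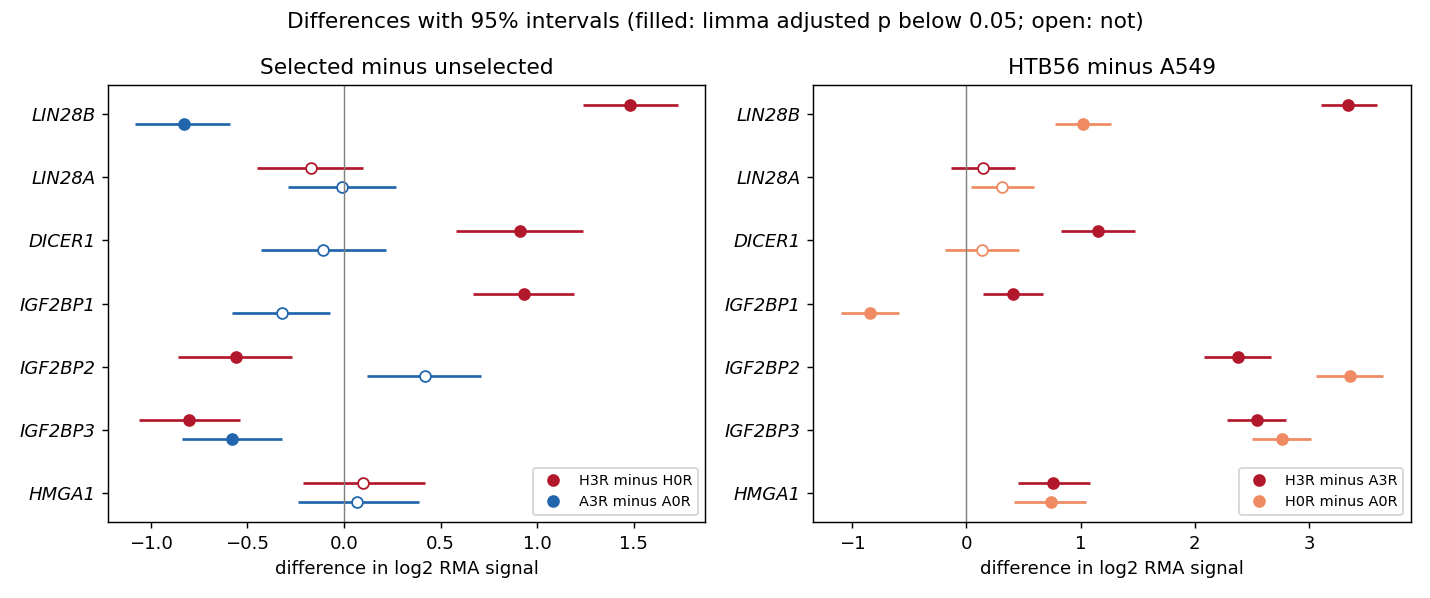
Differences in log2 RMA signal with 95% intervals (x axes) for the 7 genes, selected minus unselected at left and HTB56 minus A549 at right. Filled points have a limma adjusted p below 0.05 and open points do not. LIN28B lies at 1.48 in HTB56 and -0.83 in A549, and IGF2BP3 lies below 0 in both.

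Counted over the 7 genes, selection in HTB56 went with 3 higher (LIN28B, IGF2BP1 and DICER1), 2 lower (IGF2BP2 and IGF2BP3) and 2 not called. Of all genes tested, 19.5% were called in this comparison, 8.57% higher and 10.9% lower, and 34.3% had arrays that did not overlap. In A549 limma called 0 of the 7 higher and 2 lower (LIN28B and IGF2BP3). At an unadjusted p under 0.05 the counts were 1 higher and 3 lower, and with the block 0 higher and 3 lower. The share of all genes called in A549 was 1.75%, 0.945% higher and 0.809% lower, it was 3.32% with the block, and 12.7% of genes had arrays that did not overlap. The selection difference itself differed between the lines for 4 of the 7 genes, 3 of them more positive in HTB56 and 1 more negative. Of all genes 11.8% were called there, 5.22% more positive and 6.58% more negative (20.4% with the block). These shares are given as background, and since the list was made with results known, the members' counts are not read against them.

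The 2 lines also differed before selection, and for IGF2BP2 and IGF2BP3 that difference exceeded every selection difference of the 7 genes. H0R lay above A0R for IGF2BP2 by 3.36 (SE 0.14, adjusted p = 5.68e-11), a 10.3-fold higher signal. IGF2BP3 was higher in H0R by 2.76 (SE 0.12, adjusted p = 1.07e-10), LIN28B by 1.02 (SE 0.11, adjusted p = 3.21e-06) and HMGA1 by 0.74 (SE 0.15, adjusted p = 0.00072). IGF2BP1 was lower in H0R (difference -0.84, SE 0.12, adjusted p = 3.58e-05). DICER1 did not pass the test (0.14, 95% interval -0.19 to 0.46, adjusted p = 0.516), and LIN28A at 0.31 did not either (0.04 to 0.59, adjusted p = 0.0632). LIN28A did pass after median centring (0.0471), cyclic loess (0.0421) or array weighting (0.0208). In all, 4 members were called higher and 1 lower, where 45.2% of all genes were called, 24.9% higher and 20.3% lower (53.7% with the block).

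Between the selected lines, 6 of the 7 genes were called higher in H3R than in A3R and 0 lower, and 0 were lower at an unadjusted p under 0.05 or with the block. Of all genes, 44.6% were called here, 24.9% higher and 19.7% lower (52.7% with the block). LIN28B had the largest difference of the 7, 3.34 (SE 0.11, adjusted p = 1.29e-11), a 10.1-fold higher signal in H3R, with A3R dim as stated above. IGF2BP3 differed by 2.54, IGF2BP2 by 2.38, DICER1 by 1.15 and HMGA1 by 0.76, all with adjusted p of 0.00054 or less. IGF2BP1, which was lower in H0R than in A0R, was higher in H3R than in A3R by 0.41 (SE 0.12, adjusted p = 0.0115). That call was lost without A3R replicate 3 (0.0594) and after cyclic loess (0.061). These 2 comparisons share their arrays with the selection comparisons and are given beside them, not as further support.

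A list for let-7 biogenesis, turnover and effector machinery held 24 genes, RNA-binding proteins such as MSI2 among them. Of these 24, 3 rose and 2 fell in H3R against H0R, with a median difference of -0.01 against 0.022 over all genes. This count of 5 is near the background, since 19.5% of all genes were called, 8.57% higher and 10.9% lower. With the replicate block 3 rose and 3 fell, TARBP2, a partner of Dicer, being added (difference -0.23, adjusted p = 0.0467 with the block and 0.319 without), where 28% of all genes were called. DROSHA, the nuclear RNase that makes the first cut of the precursor, was at 10.41, 10.42 and 10.44 in H3R and at 9.66, 9.58 and 9.80 in H0R (difference 0.74, SE 0.09, adjusted p = 5.27e-05). RAN, the small GTPase of nuclear export, and XPO5, the exporter of microRNA precursors, rose by 0.33 each (adjusted p = 0.0123 and 0.0318). AGO1, an Argonaute protein that carries mature microRNA, was at 7.69, 7.62 and 7.50 in H3R and at 8.26, 8.33 and 8.25 in H0R (difference -0.67, SE 0.12, adjusted p = 0.000739). DIS3L2 fell by 0.38 (adjusted p = 0.00805). RAN lost its call without H0R replicate 2 (0.0505) and XPO5 without H0R replicate 2 or 3 or any H3R array (0.0724 to 0.126), and both lost it after median centring (0.0525 and 0.0929). TUT4 and TUT7 did not pass the test, with differences of -0.12 and -0.05.

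In A549 the same 24 genes had a median difference of -0.02, against -0.005 over all genes, with 1 called higher and 0 lower, and 0 lower also at an unadjusted p under 0.05 or with the block, where 1.75% of all genes were called. The gene was MSI2, an RNA-binding protein of the Musashi family, at 8.84, 8.70 and 8.83 in A3R and 8.30, 8.24 and 8.46 in A0R (difference 0.46, adjusted p = 0.0218). It lost the call without A0R replicate 1 (0.0885) or 2 (0.103), A3R replicate 1 (0.0761) or 3 (0.0763), after median centring (0.0547), and in the A549 arrays alone (0.135). DROSHA at -0.06 and AGO1 at -0.06 did not pass in A549. Before selection, 16 of the 24 were called higher in H0R than in A0R and 4 lower. The median of the 24 was 0.48 against -0.014 over all genes, of which 24.9% were called higher and 20.3% lower. With 1 array left out, the number of the 24 called in this comparison ran from 14 to 20. The block added TUT7 as lower (difference -0.20, adjusted p = 0.0341 with the block).

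Of 26 other reported let-7 targets, 21 were tested and 5 had no probe set with 1 symbol. In H3R against H0R, 2 rose and 4 fell, where 8.57% of all genes were called higher and 10.9% lower. The median of the 21 was 0.13, against 0.022 over all genes. The genes that rose were PRDM1, a transcriptional repressor best known for driving plasma cell differentiation, by 0.41 (adjusted p = 0.0446), and THBS1, a matrix glycoprotein, by 0.39 (0.0339). Those that fell were TGFBR1, a TGF-beta receptor, by 0.62 (0.00479), IRS2, an adaptor of the insulin receptor, by 0.58 (0.000775), CDK6, a kinase of the G1 phase, by 0.47 (0.00553), and RRM2, a subunit of ribonucleotide reductase, by 0.37 (0.0223). With the replicate block 7 rose and 4 fell, the added genes being CCND1, CDC25A, ARID3A, ARID3B and PLAGL2 (adjusted p = 0.00437 to 0.0496 with the block), where 28% of all genes were called.
Several of these calls rested on few arrays. PRDM1 was lost without A0R or A3R replicate 1 or 2, H0R replicate 1 or 2, or H3R replicate 2 or 3 (0.0519 to 0.207), and THBS1 without H0R replicate 2 or 3 or any H3R array (0.0519 to 0.129). RRM2 was lost without H0R replicate 1 or 2 or H3R replicate 2 or 3 (0.0704 to 0.0853). PRDM1 and THBS1 were also lost after median centring, at 0.0589 and 0.0632, and PRDM1 after cyclic loess (0.0547), with trend and robust eBayes (0.051) and in the HTB56 arrays alone (0.0629). The count for the list ran from 3 to 6 when 1 array was left out, and was 3 without H0R replicate 2, H3R replicate 2 or H3R replicate 3.

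In A3R against A0R, 2 of the 21 targets rose and 0 fell, where 0.945% of all genes were called higher and 0.809% lower. The median of the 21 was -0.17, against -0.005 over all genes. With the block 0 fell, and 1 fell at an unadjusted p under 0.05. PRDM1 was at 6.09, 6.07 and 5.84 in A3R and at 5.01, 5.05 and 4.80 in A0R (difference 1.05, SE 0.13, adjusted p = 0.000569), and the call held with any 1 array left out, A0R replicate 2 included (0.000543 to 0.00514). CDK6 was at 8.77, 8.74 and 8.84 in A3R and at 8.32, 8.24 and 8.26 in A0R (difference 0.51, SE 0.11, adjusted p = 0.0257), opposite to its fall in HTB56. The CDK6 call in A549 was lost without any of the 6 A549 arrays (0.0644 to 0.0969), after median centring (0.0605) and in the A549 arrays alone (0.0618). MYC, the growth-promoting transcription factor, did not pass for selection in either line (0.30 in HTB56 and -0.10 in A549). It was far lower in H0R than in A0R, at means of 6.46 in H0R and 10.13 in A0R (difference -3.67, SE 0.13, adjusted p = 1.85e-11), while THBS1 was higher in H0R by 2.67 and CDK6 by 1.69.

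**Figure D3:**
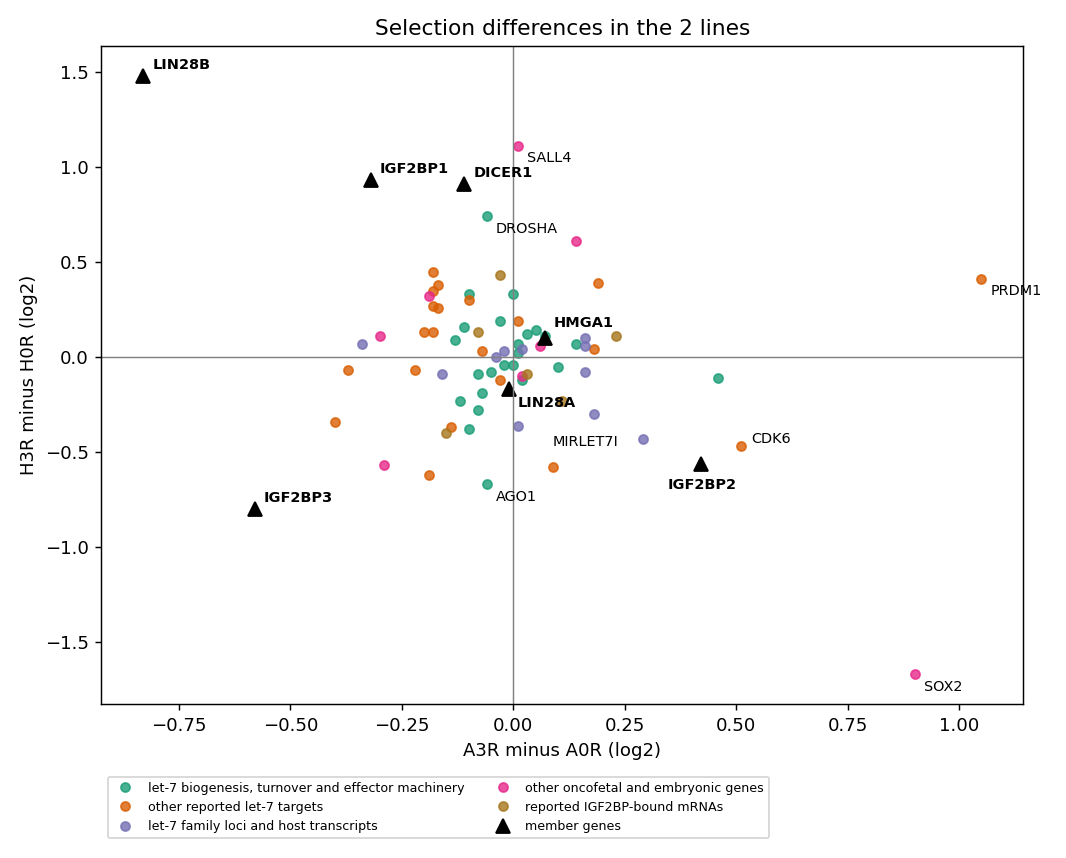
Selection differences in the 2 lines (y axis, H3R minus H0R; x axis, A3R minus A0R; both in log2 RMA signal) for the 7 measured genes (triangles) and the genes of the 5 related lists (circles, coloured by list, each gene drawn once). LIN28B lies at the upper left, at 1.48 and -0.83, and SOX2 at the lower right, at -1.67 and 0.90.

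The let-7 loci and their host transcripts were mostly dim. Of 17 named, 11 were tested, 3 were too dim and 3 had no probe set with 1 symbol. In H3R against H0R limma called 0 higher, also at an unadjusted p under 0.05 and with the block, and 1 lower, where 10.9% of all genes were called lower. This was MIRLET7I, the locus of the let-7i hairpin printed above, at 6.28, 6.23 and 6.71 in H3R and at 6.75, 6.88 and 6.89 in H0R (difference -0.43, SE 0.14, adjusted p = 0.0403). The groups did not overlap, but the call was lost without A3R replicate 1 or 2, any H0R array, or H3R replicate 1 or 2 (0.0511 to 0.173). In A549 MIRLET7I was at 6.86, 6.84 and 6.83 in A3R and at 6.81, 6.35 and 6.50 in A0R (difference 0.29, adjusted p = 0.521). In A549 0 of the 11 were called by limma, where 1.75% of all genes were called, and 0 with the block (3.32% of all genes). At an unadjusted p under 0.05, 1 fell. In H0R against A0R 4 of the 11 were called higher, among them MIRLET7F1 by 1.01 (adjusted p = 0.00284) and MIRLET7A2 by 0.80 (0.00349), where 24.9% of all genes were called higher. With the block HUWE1, a host transcript, was also called lower (difference -0.41, adjusted p = 0.00205 with the block and 0.158 without). These probe sets lie on hairpins or host transcripts, and their signal is not the amount of mature let-7.

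Of 13 other oncofetal or embryonic genes 8 were tested, and 2 rose and 2 fell in H3R against H0R, where 19.5% of all genes were called. The median of the 8 was 0.09, against 0.022 over all genes. With the block 3 rose and 2 fell, TERT, the catalytic subunit of telomerase, being added (difference 0.32, adjusted p = 0.0372 with the block and 0.0922 without). SALL4, a zinc-finger factor of embryonic stem cells and fetal liver, was at 6.31, 6.52 and 6.24 in H3R and at 5.18, 5.24 and 5.34 in H0R (difference 1.11, SE 0.13, adjusted p = 3.56e-05). TPBG, the 5T4 oncofetal antigen, rose by 0.61 (adjusted p = 0.00186). PEG10, an imprinted gene active in placenta, fell by 0.57 (0.000817). SOX2, a pluripotency and airway factor, was at 7.49, 7.29 and 7.26 in H3R and at 8.70, 8.99 and 9.35 in H0R (difference -1.67, SE 0.20, adjusted p = 3.27e-05). In A549 SOX2 went the other way, at 6.58, 6.59 and 6.64 in A3R against 5.16, 5.86 and 6.08 in A0R (difference 0.90, SE 0.20, adjusted p = 0.0322). Leaving out A0R replicate 1 (0.103) or 2 (0.0622), H0R replicate 2 (0.0524), H3R replicate 2 (0.05) or any array of A3R (0.0942 to 0.103) ended that A549 call, as did a fit on the A549 arrays alone (0.0729). It was the 1 call of the list in A549, with 0 lower by limma, 0 lower with the block and 1 lower at an unadjusted p under 0.05. Of all genes, limma called 0.945% higher in A549 and 0.809% lower, and 3.32% were called with the block.

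Of 9 mRNAs reported to be bound by IGF2BP proteins 8 were tested, and 1 rose and 2 fell in H3R against H0R, where 8.57% of all genes were called higher and 10.9% lower. SRF, a transcription factor of cytoskeletal genes, rose by 0.43 (adjusted p = 0.0396), CD44, a hyaluronan receptor, fell by 0.40 (0.0133), and SOX2, named above, is also on this list. SRF lost its call without any H0R array, H3R replicate 2 or 3 or A0R replicate 2 (0.0504 to 0.158) and after median centring (0.0586) or cyclic loess (0.0665), and CD44 without H0R replicate 1 or 2 or H3R replicate 2 or 3 (0.0534 to 0.0616). ACTB, whose mRNA is the classic cargo of IGF2BP1, did not pass, at 0.13 in HTB56 and -0.08 in A549. In A549 the list had 1 gene higher, SOX2, and 0 lower, also at an unadjusted p under 0.05 and with the block. Limma called 0.945% of all genes higher there and 0.809% lower.

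Markers of other cell types were read beside these results. The mean level of 5 epithelial markers was 8.30 to 8.55 in H3R, 8.14 to 8.32 in H0R, 10.47 to 10.62 in A3R and 10.57 to 10.70 in A0R. CDH1, the epithelial cadherin, was near the floor in HTB56 at means of 4.5 in H3R and 4.55 in H0R. EPCAM, an epithelial adhesion protein, rose by 1.02 in HTB56, while KRT8 (0.26), KRT18 (-0.04), KRT19 (-0.30) and CDH1 (-0.05) did not pass there. In A549 KRT19, a simple-epithelium keratin, rose by 1.14 (adjusted p = 0.000461) and CDH1 fell by 0.85 (0.00875), both also with any 1 array left out. EPCAM, KRT8 and KRT18 did not pass in A549. The mean of 6 fibroblast markers was 5.94 to 6.13 in H3R against 5.17 to 5.46 in H0R, and 4.91 to 5.16 in A3R against 4.75 to 4.90 in A0R. With the block KRT8 (0.26, adjusted p = 0.0434) was also called higher in HTB56, and LUM (0.91, 0.0169) and SFTPC (0.38, 0.0489) in A549. COL1A1 rose by 1.41, COL3A1 by 1.29 and LUM by 1.78 in HTB56, while COL1A2 and PDGFRB did not pass and DCN was below the 20th percentile on all arrays. All 4 endothelial markers were below the array median throughout, at means of 3.91 to 4.14 over the groups. The 4 leukocyte markers with a probe set averaged 4.29 to 4.43 in H3R, 3.75 to 3.91 in H0R, 4.08 to 4.18 in A3R and 3.97 to 4.14 in A0R. Of these, LYZ was higher in H3R (5.54 against 3.87 in H0R), while CD3E (-0.08) and CD14 (0.21) did not pass in HTB56. PTPRC was below the 20th percentile on all arrays. The 3 lung alveolar markers averaged 4.79 to 5.17 over all arrays. The part of these marker differences in the LIN28B, IGF2BP1 and DICER1 results was not tested.

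The genes whose pattern over the 12 arrays was nearest to that of LIN28B, after centring each gene on its own mean, were LIMA1, CHRM3, NCR3LG1, ENPP1 and SLC7A2. Their root mean square differences from LIN28B were 0.23, 0.31, 0.34, 0.37 and 0.38, where LIN28B itself varied around its mean by 1.25. All 5 were called higher in H3R than in H0R, by 0.77 to 1.55, where 8.57% of all genes were called higher. They were chosen on these arrays for nearness to LIN28B, which was itself higher there, so their calls are not support for its rise. In A3R against A0R the 5 genes had adjusted p of 0.0747 or more. LIMA1, which codes for an actin-binding protein, had means of 9.30 in H3R, 7.75 in H0R, 6.0 in A3R and 6.44 in A0R. For IGF2BP2 the nearest genes were KIAA1549L (0.16), SHC3 (0.20) and LIPG (0.22), and for IGF2BP3 ADAMTS12 (0.23), KHDRBS3 (0.26) and SV2A (0.27). For DICER1 they were KRABD5, BTAF1 and UTP20, each at 0.14. IGF2BP2, IGF2BP3 and DICER1 themselves varied around their means by 1.46, 1.38 and 0.49. The differences of neighbours of different genes are therefore not on a common footing. The arrays of a line share most of their expression pattern, so nearness in 4 groups is a description.

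**Figure D4:**
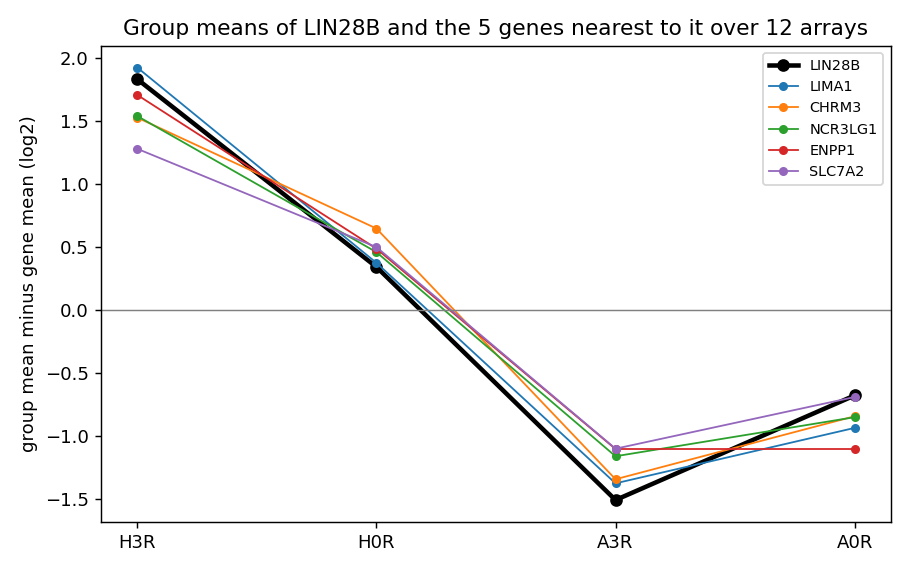
Group means of LIN28B and the 5 genes nearest to it (y axis, group mean minus the gene's mean of the group means, log2; x axis, group). All lines fall from H3R to H0R, by 0.77 (SLC7A2) to 1.55 (LIMA1), and LIN28B has the lowest point in A3R.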

How the data were processed

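Per the labels' protocols, total RNA of the 12 samples was column-purified and biotin-labelled for Affymetrix whole-transcript arrays. The deposited table gives log2 RMA signals. The submitters' processing notes name RMA and Affymetrix Expression Console, and the authors' versions are not given in the labels. RMA removes background, forces the arrays onto 1 distribution and combines each set's probes, so dim genes show compressed differences and a change common to all mRNA is lost. Scanner files were not used here, and with 3 arrays a group precision is limited by their number.

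The table held 33297 probe sets, with 0 values missing, 0 columns unused and 0 arrays identical. The annotation gave 1 gene symbol for 19460, several for 1754 and none for 12083. Entrez identifiers of 19429 were found in RefSeq (GRCh38.p14), with 0 symbols changed. Each gene took its brightest probe set and was tested if this exceeded the array's 20th percentile on 3 or more of the 12 arrays, which left 16939 genes. limma 3.58.1 (R 4.3.3) fitted 1 mean per group over all arrays with lmFit and eBayes for 5 comparisons. Tests were two-sided, p-values were adjusted by Benjamini-Hochberg over all genes, and the threshold was 0.05. Every adjusted p and 95% interval is from that fit, unless another fit, such as the block or one with an array left out, is named beside it. Before use, the fit was run on simulated arrays for H3R against H0R alone. Those arrays were independent and had no difference between lines, so the pairing by replicate number and the other comparisons were not covered. Figures were drawn with matplotlib 3.10.9, and other steps used pandas 2.3.3 in Python 3.11.15.

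The members, gene lists and tests were chosen with earlier results of these data known. The text names, by rule, all members, the called list genes with the largest differences (up to 3 per list, direction and comparison, here those of the main comparisons), and the genes nearest in pattern to LIN28B (5) or to another member whose group means span at least 1 (3 each), non-coding and unnamed symbols left out. RRM2, TUT4, TUT7, ACTB, genes called only with the block and single markers were named after their values were seen.

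Groups share replicate numbers of unstated meaning. Over genes, deviations from the group mean correlated at 0.16 to 0.549 for equal numbers and at -0.417 to 0.204 for unequal ones, and each of the 12 arrays correlated most with its own number, so the values themselves pair the samples. The alternatives were other filters on dim probe sets, averaging a gene's probe sets, median centring, cyclic loess, using only the arrays compared, the replicate block, trend and robust eBayes, array weights, a threshold of 0.01, and dropping each array in turn.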

Additional observations from a re-analysis of the deposited data

Results flagged for a closer look

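Differences in the selection response between the 2 lines passed the interaction test of the limma fit for 4 of the 7 listed genes with a value. They also passed for 9 genes of the related lists, which had 24, 21, 11, 8 and 8 genes tested, some on more than 1 list. Of all genes tested 11.8% were called there, 5.22% more positive and 6.58% more negative, so the counts are a description and not a result about the lists. All values are HTB56 minus A549 on the log2 scale.

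Among the listed genes, LIN28B stood at 2.32 (adjusted p = 6.62e-07), with 1.48 in HTB56 and -0.83 in A549. IGF2BP1 stood at 1.25 (0.000206), DICER1 at 1.02 (0.00616) and IGF2BP2 at -0.98 (0.00411). These 4 held in each fit that left out 1 array.

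In the related lists, SOX2 had the largest value, -2.57 (adjusted p = 3.14e-05), from -1.67 in HTB56 and 0.90 in A549. SALL4 was at 1.10 (0.00134), DROSHA at 0.80 (0.00107), CDK6 at -0.98 (0.000611), IRS2 at -0.67 (0.00609) and MSI2 at -0.57 (0.0115). AGO1 was at -0.62 (0.0231), and its call was lost without A0R replicate 3, A3R replicate 1, H0R replicate 2 or H3R replicate 3 (0.0523 to 0.0576). MIRLET7I was at -0.73 (0.0262), lost without A0R replicate 2, A3R replicate 1 or 2, H0R replicate 2 or 3, or H3R replicate 1 or 2 (0.0507 to 0.0753). PRDM1 was at -0.64 (0.0414), lost without any A0R array, A3R replicate 1 or 2, H0R replicate 2 or 3, or H3R replicate 1 or 3 (0.0505 to 0.103) and with array weights (0.075).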

How the results depend on the processing

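The directions and calls of LIN28B, IGF2BP1, DICER1, IGF2BP2 and IGF2BP3 in HTB56 and of LIN28B in A549 were the same under all alternatives run, with LIN28B between 1.39 and 1.57 in HTB56 and between -0.90 and -0.75 in A549 when 1 array was left out. The fit on only the arrays compared was not run for the difference between the lines, which uses all arrays.

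At a threshold of 0.01, 2039 genes were called in H3R against H0R (3298 at 0.05), 142 in A3R against A0R (297 at 0.05) and 1036 for the difference between the lines (2000 at 0.05), and the listed genes called in A549 numbered 1 in place of 2. In only the 6 A549 arrays, 179 genes and 1 listed gene were called. Leaving out 1 array gave 176 to 286 genes and 1 to 2 listed genes in A549, the lowest counts being 176 (A0R replicate 1 out), 187 (A3R replicate 2 out) and 190 (A0R replicate 2 out).

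Blocking on the replicate number raised the genes called to 562 in A549 (3 listed genes, IGF2BP1 added) and to 3458 for the difference between the lines. The block also raised the reported let-7 targets called in HTB56 to 11 of 21, against 6 without it. Of all genes 28% were called there with the block and 19.5% without. For the difference between the lines the block called 5 of 24 machinery genes against 3, 8 of 21 targets against 3 and 2 of 11 let-7 loci against 1. It called 4 of 8 oncofetal genes against 2, and 2 of 8 IGF2BP-bound mRNAs against 1. Of all genes 20.4% were called for that difference with the block and 11.8% without. The block changed no other call of a listed gene.

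Some values that passed no test changed sign. LIN28A in A549 was 0.072 with array weights and -0.12 to 0.079 with 1 array left out, and its difference between the lines was 0.091 with the mean of its probe sets. HMGA1 in A549 was -0.026 with that mean and -0.044 to 0.21 with 1 array left out. In HTB56 HMGA1 was -0.015 to 0.19 with 1 array left out. Its difference between the lines was -0.003 with cyclic loess, -0.0005 with array weights and -0.11 to 0.15 with 1 array left out. DICER1 in A549 was -0.24 to 0.067 with 1 array left out. The cause of these changes was not tested.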
